A study of Mus musculus with 20 samples.

Results

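The values described here are the change with time of the effect of a guide against Hira on RNA levels in mouse liver. For every gene the difference between livers given the Hira guide and livers given a control guide was taken at 6 months and at 3 weeks after injection, and the second difference was subtracted from the first. This interaction, given throughout as a log2 difference, is positive where the Hira guide raised a gene more, or lowered it less, at 6 months than at 3 weeks. It is equally the change from 3 weeks to 6 months with the Hira guide minus that with the control guide. It was fitted for the 22867 genes with at least 10 counts in total, of 55421 genes in the count table, over all 20 libraries.

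Wildtype C57BL/6 mice, female by the sample labels, were injected at 6 months of age with AAV8 carrying saCAS9 under the Tbg promoter and an sgRNA under U6, directed either at HIRA or at Rosa26, a safe-harbour locus used as control. All 20 animals thus carried virus, Cas9 and a guide, and none was untreated. Liver RNA was sequenced from 5 animals per guide at 3 weeks and 5 per guide at 6 months. The 4 groups are called Rosa26 and HIRA at 3 weeks and at 6 months below. Tbg is a hepatocyte promoter, so stellate, endothelial, Kupffer and biliary cells of the same livers were not the target of editing but their RNA is in every library. In whole liver, fewer cells of a type and less RNA per cell of that type cannot be told apart.

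HIRA places H3.3, a variant of histone H3, into chromatin outside of DNA replication, at transcribed genes and regulatory elements, together with UBN1 and CABIN1. Hepatocytes divide rarely, and H3.3 is the form of H3 that non-dividing cells go on incorporating. The liver programs examined here include the circadian clock, in which CLOCK and BMAL1 (encoded by Arntl) activate the Per, Cry and Nr1d genes, whose products repress them in turn, and lipid storage, in which perilipins and CIDE proteins coat and fuse lipid droplets in hepatocytes.

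Each library held 19916430 to 24079736 counts, and the 10 most counted genes took 17.4% to 25.1% of them. Hira itself was measured at 6.49, 8.54, 7.30, 6.04 and 6.33 CPM (counts scaled to the effective library size) in Rosa26 and 5.81, 5.95, 4.36, 4.55 and 4.15 CPM in HIRA at 3 weeks, and at 5.63, 7.32, 6.07, 6.07 and 4.82 CPM in Rosa26 and 5.32, 4.96, 5.64, 5.48 and 6.51 CPM in HIRA at 6 months. The 2 groups did not overlap at 3 weeks and overlapped at 6 months. The guide effect on Hira RNA was -0.48 ± 0.14 (SE) at 3 weeks and -0.10 ± 0.14 at 6 months, and its interaction was 0.38 ± 0.20 (edgeR adjusted p = 0.78). Counts per gene do not distinguish edited from unedited transcripts. HIRA 6 months replicate 5 had 9 counts of Xist where the other 19 libraries had 6286 to 8436, and 2041 counts of 4 Y-linked genes where the others had 0 to 13, although it is labelled female like the rest. It is kept under its label, and results are also given without HIRA 6 months replicate 5 for the counts, most lists and some of the leading genes.

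No gene passed an adjusted p of 0.05 together with an absolute log2 difference above 1 for the interaction (0.0% of genes tested), and the lowest adjusted p from edgeR's quasi-likelihood test was 0.614. At an unadjusted p under 0.05 there were 1514 genes (6.62%), of which 840 were positive (3.67%) and 674 negative (2.95%). Scaling by the upper quartile turned this split to 679 positive and 807 negative genes. Without HIRA 6 months replicate 5, again 0 genes passed both thresholds (0.0%), the lowest adjusted p was 0.46, and 1734 genes had an unadjusted p under 0.05 (7.64%; 946 positive, 4.17%, and 788 negative, 3.47%). The other tools called 0 genes past both thresholds with all libraries, DESeq2 with 1235 and limma-voom with 1523 at an unadjusted p under 0.05. DESeq2 without HIRA 6 months replicate 5 called 6 genes past both thresholds, which were Plin4, Ppard, Htra3, Cebpd, Dbp and the unnamed model Gm15756. The single genes below are therefore described by their values, and no interaction of a single gene is called.

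Among the 1514 genes, 1232 (81.4%) had guide effects of opposite sign at the 2 times, where 40.5% of all genes tested did. A large interaction is favoured by opposite signs, so this share follows in part from how the genes were picked. The share was 79.0% without HIRA 6 months replicate 5. In 211 genes (13.9%) the effect had 1 sign and was larger at 6 months, and in 71 genes it had 1 sign and was larger at 3 weeks. Read along the other axis, 947 of the 1514 genes (62.6%) changed more with time in the Rosa26 livers than in the HIRA livers, against 53.6% of all genes tested (57.8% and 51.6% without HIRA 6 months replicate 5). Only 2 genes had all 5 HIRA libraries apart from all 5 Rosa26 libraries at both times in opposite directions (0.00875%), and both were low. Over all genes, the guides did not overlap in 615 genes at 3 weeks (2.69%) and 720 at 6 months (3.15%), and the times in 801 genes with Rosa26 (3.5%) and 336 with HIRA (1.47%). The 2 genes were Tshz3, a zinc finger gene that was below Rosa26 at 3 weeks and above it at 6 months with an interaction of 1.34 at a mean of 0.927 CPM, and the unnamed model Gm7232. HIRA stood apart from Rosa26 in the same direction at both times in 60 genes (0.262%), at 3 weeks alone in 553 genes (2.42%) and at 6 months alone in 658 genes (2.88%).

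The circadian clock had the most negative median interaction of the 45 gene lists examined in the edgeR fit, whereas with limma-voom that of female-biased genes was lower (-1.46 against -1.11). Clock repressors and output genes were higher in HIRA than in Rosa26 livers at 3 weeks, but at 6 months the groups overlapped. The HIRA livers overlapped between the times, whereas the Rosa26 livers were low at 3 weeks and within the range of the HIRA livers at 6 months for most of these genes. Of the 15 genes of this list (the Per, Cry2, Nr1d, Bhlhe and Ciart repressors and the outputs Dbp, Tef, Hlf, Usp2 and Wee1 among them), 13 had a negative interaction, 8 of them at an unadjusted p under 0.05 (2.95% of all genes tested), and 0 a positive one at that threshold. Over all genes tested 54.4% had a positive interaction. The median was -1.21, against 0.03 over all genes tested, and it was -1.27 without HIRA 6 months replicate 5 and -0.54 on the FPKM scale with a pseudocount of 1.

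Dbp, a PAR-domain transcription factor driven directly by CLOCK and BMAL1, was measured at 1.52, 1.60, 2.40, 1.76 and 3.54 CPM in Rosa26 and 47.6, 38.7, 9.05, 104 and 55.2 CPM in HIRA at 3 weeks. At 6 months it was at 32.5, 20.8, 95.1, 63.5 and 18.1 CPM in Rosa26 and 3.75, 40.4, 20.5, 110 and 115 CPM in HIRA. Every Rosa26 liver at 3 weeks was thus lower than every other liver of the 20, while at 6 months the groups overlapped fully. Dbp rose with the Hira guide at 3 weeks by 4.55 ± 0.79 (adjusted p = 0.025) and differed by 0.33 ± 0.64 at 6 months (adjusted p = 0.87). It rose with time in the Rosa26 livers by 4.40 ± 0.79 (adjusted p = 0.023), and the interaction was -4.22 ± 1.00 (-4.63 ± 1.02 without HIRA 6 months replicate 5). Leaving out any 1 of 6 libraries took the 3-week call of Dbp past 0.05, the highest adjusted p being 0.077 without Rosa26 3 weeks replicate 2.

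Most other members also had negative interactions. Per3, a period-family repressor, had medians of 2.90 CPM in Rosa26 and 17.1 CPM in HIRA at 3 weeks and 17.3 and 16.4 CPM at 6 months, with an interaction of -2.65 ± 0.70. Nr1d2, the nuclear receptor REV-ERB beta, was at 16.2 to 32.5 CPM in Rosa26 and 41.8 to 68.9 CPM in HIRA at 3 weeks and at 39.9 to 58.9 and 26.1 to 63.3 CPM at 6 months, with an interaction of -1.21 ± 0.31. For Tef, a PAR-domain factor related to Dbp, the interaction was -1.38 ± 0.40, for Nr1d1 (REV-ERB alpha) -1.46 ± 0.47, for the cryptochrome Cry2 -0.74 ± 0.23 and for Wee1, a cell cycle kinase under clock control, -1.23 ± 0.43. Ciart, a repressor of CLOCK and BMAL1, had an interaction of -2.46 ± 0.92 and a higher median in HIRA (6.65 CPM) than in Rosa26 (1.67 CPM) at 6 months. Usp2, a deubiquitinase gene with a clock-driven promoter, had guide effects of 2.24 ± 0.42 at 3 weeks and 1.46 ± 0.40 at 6 months (interaction -0.78 ± 0.57). Per1 and Per2 did not share the pattern, at 0.65 ± 0.53 and -0.41 ± 0.51, nor did Hlf at -0.07 ± 0.16.

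Ciart, Dbp, Nr1d2, Per3, Tef, Usp2 and Wee1 rose with the Hira guide at 3 weeks at an adjusted p under 0.05 (7 of 15, where 0.197% of all genes changed), and none of the 15 did at 6 months (1.31% of all genes changed). Cry2, Dbp, Nr1d2, Per3 and Tef rose with time in the Rosa26 livers (5 of 15, where 0.324% of all genes changed), and none changed with time in the HIRA livers (0.0656%). These calls lean on single libraries. None of the 15 passed at 3 weeks without Rosa26 3 weeks replicate 1, 2 or 4 or without HIRA 3 weeks replicate 4 or 5, and none passed over time in the Rosa26 livers without Rosa26 3 weeks replicate 1, 3 or 4 or Rosa26 6 months replicate 3 or 4. DESeq2 called 8 and 9 members in these 2 comparisons and limma-voom 1 and 1.

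Genes of the positive limb had a median of the other sign. The 6 genes of this list, which joins Arntl and Npas2 with Nfil3 and the repressor Cry1, held 0 genes at an unadjusted p under 0.05, and their median interaction was 0.82 (0.52 without HIRA 6 months replicate 1, and 0.84, with 1 positive gene at that threshold, Npas2, without HIRA 6 months replicate 5). Npas2, a partner of BMAL1 related to CLOCK, was at 13.9 to 18.8 CPM in Rosa26 and 1.45 to 10.9 CPM in HIRA at 3 weeks, without overlap, and at 2.11 to 9.96 and 1.37 to 15.7 CPM at 6 months. Its interaction was 1.54 ± 0.77. Nfil3, which competes with the PAR-domain factors for their sites, was at 60.2 to 77.3 CPM in Rosa26 and 15.8 to 47.5 CPM in HIRA at 3 weeks, with an interaction of 0.80 ± 0.40. Arntl had an interaction of 0.91 ± 0.55. Cry1, a repressor like Cry2, had one of 0.84 ± 0.49 and is not among the 15 genes above. The hour of day at which livers were taken was not found in the sources used here, and its part in these values was not tested.

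**Figure D1:**
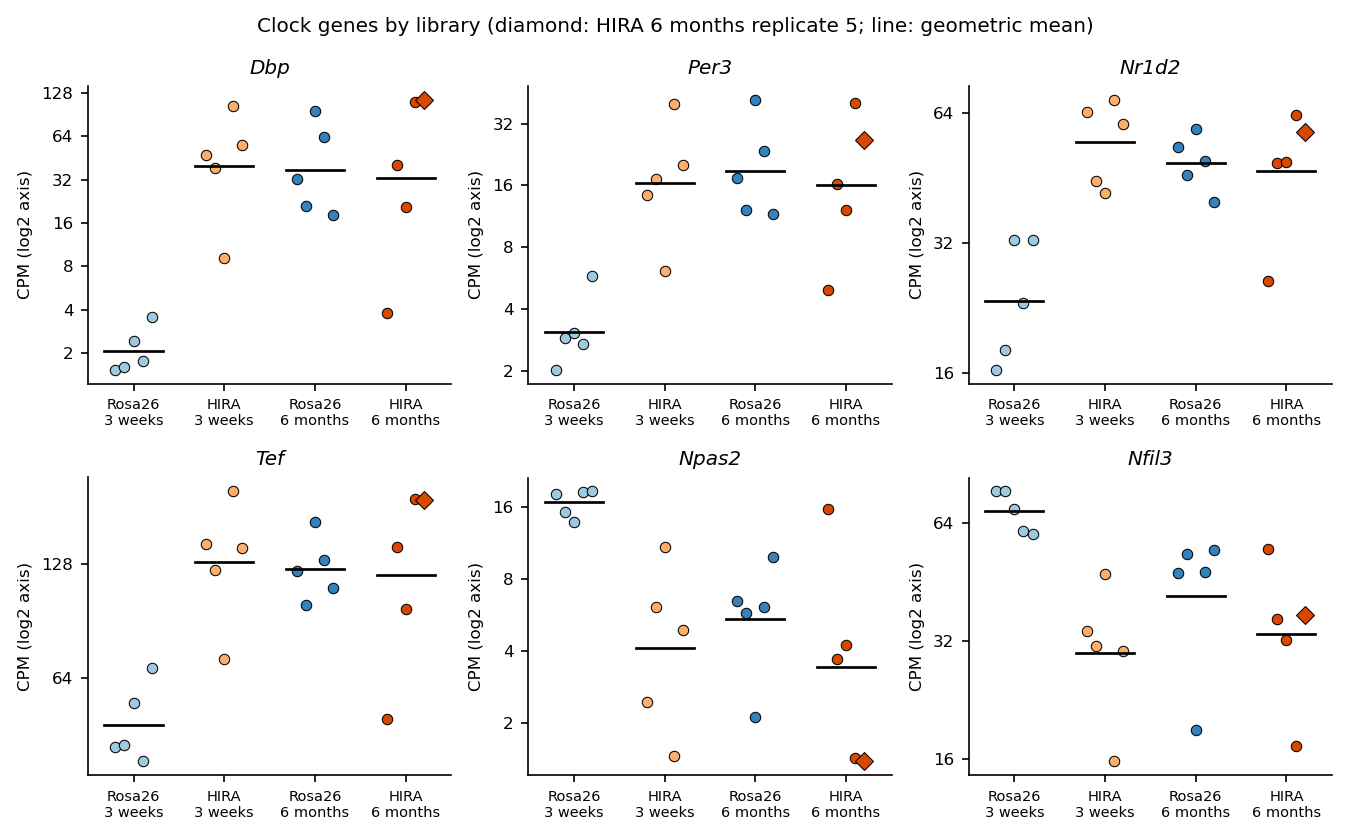
CPM on a log2 axis of 6 clock genes in each of the 20 libraries, by guide and time, with the geometric mean of each group as a line and HIRA 6 months replicate 5 as a diamond. For Dbp, Per3, Nr1d2 and Tef the 5 Rosa26 livers at 3 weeks lie below all 5 HIRA livers at 3 weeks, for Npas2 and Nfil3 they lie above them, and at 6 months the guides overlap for all 6.

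Promoters of 3 clock genes are printed because they hold the sequence elements by which clock factors are known to act, with the matches in capitals. They run from 250 bases before to 50 bases after the annotated start, 5′ to 3′ on the gene's strand, from RefSeq on GRCm38.p6. In Ciart (chr3:95882179-95882478, minus strand) the capitals mark the E-box CACGTG, the element bound by CLOCK and BMAL1, which starts at -116, -58 and -44 from the gene's start. In Tef (chr15:81802423-81802722, plus strand) they mark 1 E-box at -127, and in Per3 (chr4:151044616-151044915, minus strand) the D-box TTATGTAA, the element of Dbp, Tef and Nfil3, at -205 and -158.
Ciart: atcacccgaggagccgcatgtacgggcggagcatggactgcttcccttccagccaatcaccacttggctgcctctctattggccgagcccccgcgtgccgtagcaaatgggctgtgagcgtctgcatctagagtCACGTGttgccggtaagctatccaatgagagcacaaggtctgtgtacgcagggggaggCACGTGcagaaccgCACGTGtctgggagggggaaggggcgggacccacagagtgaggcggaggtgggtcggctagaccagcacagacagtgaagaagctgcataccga
Tef: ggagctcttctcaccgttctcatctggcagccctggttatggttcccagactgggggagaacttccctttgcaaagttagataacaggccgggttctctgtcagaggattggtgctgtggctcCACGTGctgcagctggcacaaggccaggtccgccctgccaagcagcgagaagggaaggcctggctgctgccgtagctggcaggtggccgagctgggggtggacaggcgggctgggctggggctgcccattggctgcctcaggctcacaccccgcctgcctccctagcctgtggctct
Per3: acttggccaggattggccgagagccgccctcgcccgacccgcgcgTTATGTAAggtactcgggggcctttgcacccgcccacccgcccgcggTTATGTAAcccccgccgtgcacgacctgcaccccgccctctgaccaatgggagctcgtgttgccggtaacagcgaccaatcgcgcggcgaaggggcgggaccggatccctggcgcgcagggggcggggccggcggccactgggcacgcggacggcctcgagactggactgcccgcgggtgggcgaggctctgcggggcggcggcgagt

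The E-box, which reads the same on both strands, was in 8.09% of the promoters of 27025 genes and in 10.5% of those of tested genes. It was in 4 of the 13 clock repressor and output genes with a promoter sequence (Bhlhe41, Ciart, Per1 and Tef), in 8.63% of positive and 13.6% of negative genes at an unadjusted p under 0.05. The D-box, searched on both strands, was in 1.11% of all promoters and in Per3 alone of the 13. None of the 3 printed promoters held both motifs. A match describes letters and not a bound site.

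Lipid droplet genes had a positive median interaction, and the members differed in sign. Plin4, a coat protein of lipid droplets, had the smallest p among the genes named (unadjusted p = 0.00012). It was measured at 8.11, 6.89, 7.67, 7.66 and 5.26 CPM in Rosa26 and 5.76, 5.72, 7.65, 3.94 and 3.91 CPM in HIRA at 3 weeks, and at 5.17, 7.60, 6.67, 5.70 and 4.40 CPM in Rosa26 and 17.2, 19.9, 16.7, 5.97 and 44.4 CPM in HIRA at 6 months. At 6 months 4 of 5 HIRA livers were above every Rosa26 liver and replicate 4 lay among them. Plin4 rose with the Hira guide at 6 months by 1.82 ± 0.33 (adjusted p = 0.014) and with time in the HIRA livers by 1.95 ± 0.34 (adjusted p = 0.026), and its interaction was 2.22 ± 0.47. HIRA 6 months replicate 5 had the highest value, and without it the interaction was 1.74 ± 0.36. The call at 6 months held without any 1 library (highest adjusted p = 0.047), whereas the call over time was lost without 1 of 4 libraries (0.125 without HIRA 3 weeks replicate 4).

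Of the 17 lipid droplet genes, 13 had a positive interaction, 5 of them at an unadjusted p under 0.05, and 2 a negative one at that threshold, with a median of 0.51. Over all genes tested 54.4% were positive, and 3.67% and 2.95% were at that threshold in each direction. Without HIRA 6 months replicate 5 only 9 of 17 were positive and 8 negative, 3 and 2 of them at that threshold, with a median of 0.29. Plin5, the perilipin of oxidative tissues, had an interaction of 1.12 ± 0.33, with medians of 46.1 and 29.8 CPM in Rosa26 and HIRA at 3 weeks and 32.4 and 38.2 CPM at 6 months. Fitm2, an endoplasmic reticulum protein needed for droplet budding, and Pnpla2, the adipose triglyceride lipase, rose with the Hira guide at 6 months by 0.57 ± 0.10 and 0.62 ± 0.11 (adjusted p = 0.014 for both), with interactions of 0.45 ± 0.15 and 0.34 ± 0.15. Cideb, which promotes the lipidation of lipoproteins, fell by 0.44 ± 0.08 with the Hira guide at 6 months (adjusted p = 0.014) and had an interaction of -0.23 ± 0.11, which turned to 0.07 on the FPKM scale. Cidec, which drives droplet fusion, was at 2.07 to 3.23 CPM in 4 HIRA livers at 6 months and at 60.6 CPM in HIRA 6 months replicate 5. Its interaction of 2.76 ± 1.02 was 0.35 ± 0.26 without that library. Plin3, a perilipin found on small droplets, had an interaction of -0.43 ± 0.16.

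The lists of fat use and fat making had medians of opposite sign, with score interactions of 0.37 ± 0.29 and -0.41 ± 0.25, and the difference between the lists was not tested. Over all genes tested 54.4% were positive, and 3.67% were positive and 2.95% negative at an unadjusted p under 0.05, beside which the counts of these lists stand. Among 26 genes of fatty acid oxidation and ketogenesis 22 had a positive interaction, 3 of them (Fgf21, Creb3l3 and Cpt1a) at an unadjusted p under 0.05 and 1 (Ppargc1a) a negative one, with a median of 0.27. Without HIRA 6 months replicate 5 these were 1 and 0, with a median of 0.26, and the median was 0.13 without Rosa26 3 weeks replicate 1 and 0.17 without HIRA 6 months replicate 1. Fgf21, a hepatokine induced by fasting, was at 6.74, 0.40, 14.1, 9.02 and 1.77 CPM in Rosa26 and 2.67, 1.87, 6.10, 0.92 and 1.76 CPM in HIRA at 3 weeks, and at 0.64 to 2.56 CPM in Rosa26 and 1.73 to 10.8 CPM in HIRA at 6 months. The groups overlapped at both times, and the interaction was 3.29 ± 0.93. Cpt1a, which takes fatty acids into mitochondria, had an interaction of 0.36 ± 0.16. Among 21 genes of lipogenesis 17 had a negative interaction, 2 of them (Pnpla3 and Mlxipl) and 1 positive gene (Agpat2) at an unadjusted p under 0.05, with a median of -0.31, which was -0.32 without HIRA 6 months replicate 5 and -0.15 without HIRA 6 months replicate 1. In sterol synthesis 3 of 25 genes were negative at that threshold (Insig1 at -0.93 ± 0.28, Stard4 at -0.58 ± 0.18 and Sc5d), and the median was -0.11, -0.03 without HIRA 6 months replicate 5 and -0.34 without HIRA 6 months replicate 4.

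Ppard, the nuclear receptor PPAR delta, was the second positive gene by p. It was at 42.3, 47.0, 20.8, 38.8 and 30.1 CPM in Rosa26 and 10.6, 13.9, 17.6, 9.59 and 12.0 CPM in HIRA at 3 weeks, and at 11.5, 15.4, 10.2, 13.1 and 20.7 CPM in Rosa26 and 30.2, 13.3, 14.4, 11.8 and 12.6 CPM in HIRA at 6 months. The 5 Rosa26 livers at 3 weeks were above all others but HIRA 6 months replicate 1. With the Hira guide Ppard fell by 1.49 ± 0.26 at 3 weeks (adjusted p = 0.027), and with time in the Rosa26 livers it fell by 1.34 ± 0.26 (adjusted p = 0.031). Its interaction was 1.71 ± 0.37 (1.79 ± 0.38 without HIRA 6 months replicate 5). Leaving out 1 library raised these adjusted p to as much as 0.086 without HIRA 3 weeks replicate 4 and 0.097 without Rosa26 3 weeks replicate 4.

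Ribosome biogenesis genes had small positive interactions in many members. Of 22 genes for processing of ribosomal RNA, 17 were positive, 8 of them at an unadjusted p under 0.05 (3.67% of all genes tested) and 0 negative, with a median of 0.19 (7 and 0.15 without HIRA 6 months replicate 5). The median was 0.11 without HIRA 6 months replicate 3 and 0.12 without Rosa26 3 weeks replicate 4. Nolc1, a nucleolar chaperone, was at 18.7 to 25.2 CPM in Rosa26 and 15.8 to 24.1 CPM in HIRA at 3 weeks and at 11.0 to 16.0 and 17.6 to 21.6 CPM at 6 months. At 6 months no HIRA liver was as low as any Rosa26 liver, and its interaction was 0.57 ± 0.17. Rrp12, which takes part in export of ribosomal subunits, had an interaction of 0.76 ± 0.22, Wdr43 of 0.38 ± 0.13 and the box C/D proteins Nop58 and Nop56 of 0.46 ± 0.16 and 0.34 ± 0.14. With time in the Rosa26 livers the changes were -0.62 ± 0.12 for Nolc1, -0.46 ± 0.10 for Nop2 (an rRNA methyltransferase) and -0.55 ± 0.10 for Nop56, which overlaps Idh3b on the opposite strand with 682% of its counts (adjusted p = 0.033, 0.042 and 0.023). These are 3 of 22, where 0.324% of all genes changed, and 0 of 22 were called in the HIRA livers, where 0.0656% of all genes were. None of the 3 calls was made without Rosa26 3 weeks replicate 1, 3 or 4 or Rosa26 6 months replicate 3 or 4. The 80 genes of cytosolic ribosomal proteins held 0 genes at an unadjusted p under 0.05 in either direction (6.62% of all genes tested), with a median of -0.06 (-0.11 without Rosa26 3 weeks replicate 1, -0.01 without HIRA 3 weeks replicate 1 and 0.00 on the FPKM scale).

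A score per library, the mean over a list of log2 CPM centred on each gene's mean over the 20 libraries, was computed as well. For ribosome biogenesis it was 0.03 to 0.15 in Rosa26 and -0.07 to 0.10 in HIRA at 3 weeks and -0.23 to -0.08 in Rosa26 and -0.08 to 0.13 in HIRA at 6 months, an interaction of 0.19 ± 0.06 (SE; 0.19 ± 0.07 without HIRA 6 months replicate 5). For the clock repressors and outputs it was -1.11 to -0.64 and -0.36 to 1.21 at 3 weeks and -0.19 to 0.58 and -0.73 to 0.94 at 6 months, an interaction of -1.13 ± 0.43 (-1.24 ± 0.48). For lipid droplets it was 0.47 ± 0.21 (0.32 ± 0.16). These 3 of the 45 lists had an interaction of the score above 2 of its SE, and 24 lists had one under 1 SE. Without HIRA 6 months replicate 5 there were 5 above 2 SE, the genes of the mitochondrial genome (-0.78 ± 0.31) and the female-biased genes being the other two. The lists were chosen with results of these libraries known, so no p is attached to a score.

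**Figure D2:**
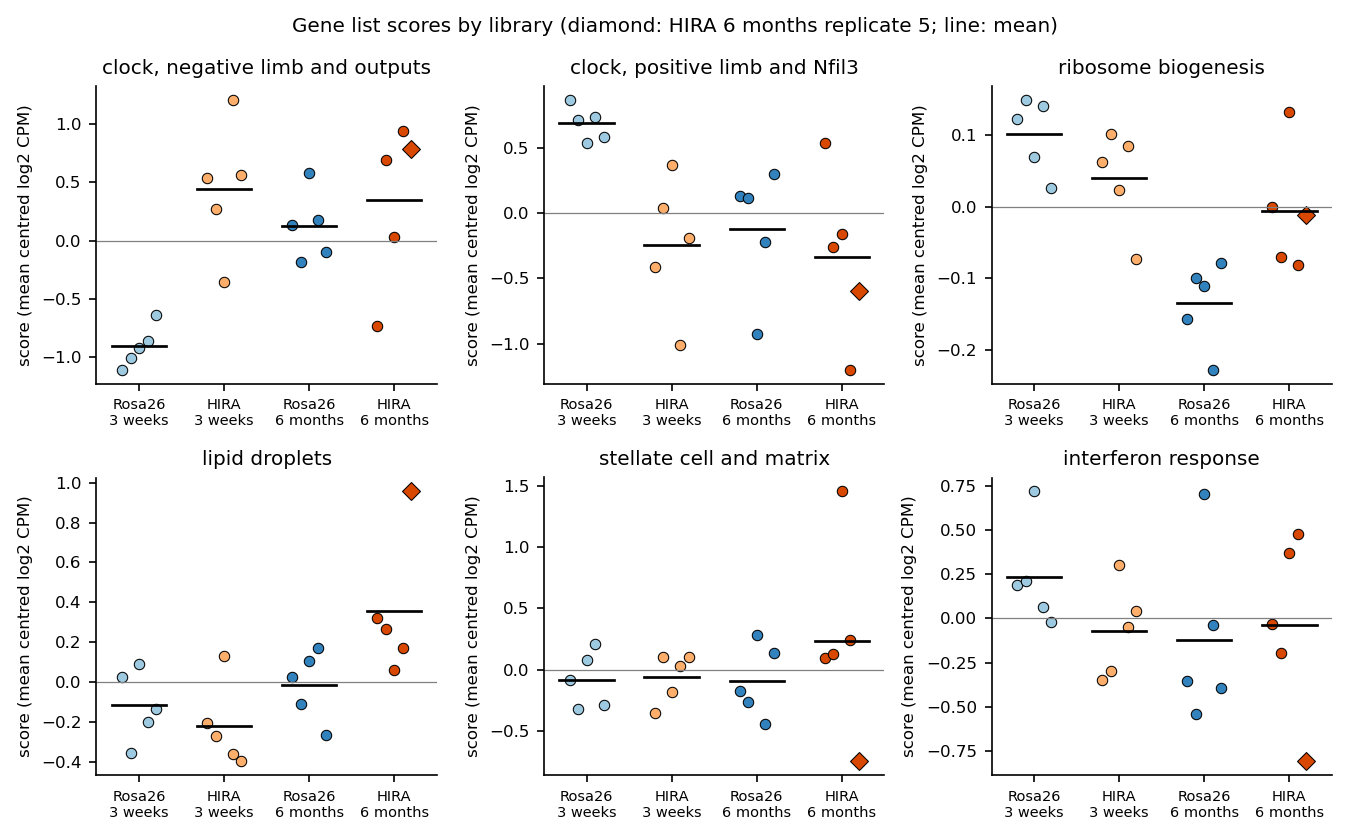
Scores of 6 gene lists (mean centred log2 CPM) in each of the 20 libraries by guide and time, with group means as lines and HIRA 6 months replicate 5 as a diamond. The clock scores of Rosa26 at 3 weeks lie apart from those of HIRA at 3 weeks, the ribosome biogenesis score of HIRA at 6 months spans -0.08 to 0.13 where Rosa26 spans -0.23 to -0.08, and HIRA 6 months replicate 3 (1.46) and replicate 5 (-0.75) spread the matrix score.

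The 12 positive genes with the smallest p in both fits, with all libraries and without HIRA 6 months replicate 5, were Plin4, Ppard, Smarcd1, Nol10, Pprc1, Htra3, Brpf1, Slc25a22, Enc1, Gstp2, Ppan and Dot1l, with interactions of 0.52 to 2.22 (adjusted p = 0.614 for each). In 9 of the 12 the guide effects had opposite signs, and in 9 the Rosa26 livers changed more with time than the HIRA livers. The Hira guide had raised 7 of them at 6 months and lowered 1 at 3 weeks at an adjusted p under 0.05 (1.31% and 0.197% of all genes changed at these times). The interaction that picked these genes holds the same guide effects, so these counts follow in part from the choice. Pprc1, a coactivator of nuclear genes for mitochondria related to Ppargc1a, was at 17.6, 20.3, 16.1, 14.7 and 10.2 CPM in Rosa26 and 18.3, 18.9, 19.3, 20.6 and 17.4 CPM in HIRA at 3 weeks, and at 7.04, 9.51, 7.66, 4.40 and 8.67 CPM in Rosa26 and 17.4, 16.1, 20.3, 16.6 and 14.8 CPM in HIRA at 6 months. Only the Rosa26 livers at 6 months were low, and they lay below all other livers. Pprc1 rose with the Hira guide at 6 months by 1.19 ± 0.17 (adjusted p = 0.011) and fell by 1.08 ± 0.17 with time in the Rosa26 livers (adjusted p = 0.015, a call lost without Rosa26 3 weeks replicate 1), and its interaction was 0.93 ± 0.24.

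Dot1l, the H3K79 methyltransferase, and Ppan, a nucleolar protein of ribosome assembly, were lower in all 5 Rosa26 livers than in all 5 HIRA livers at 6 months. Dot1l was at 33.2 to 38.5 CPM in Rosa26 and 28.6 to 45.4 CPM in HIRA at 3 weeks and at 21.1 to 29.3 and 35.2 to 46.8 CPM at 6 months, with a guide effect of 0.60 ± 0.11 at 6 months (adjusted p = 0.014) and an interaction of 0.56 ± 0.15. Ppan rose at 6 months by 0.53 ± 0.10 (adjusted p = 0.018, and 0.062 without Rosa26 6 months replicate 4), with an interaction of 0.56 ± 0.15. Slc25a22, a mitochondrial glutamate carrier, rose at 6 months by 0.71 ± 0.13 (adjusted p = 0.014), with an interaction of 0.67 ± 0.18. Brpf1, a reader subunit of histone acetyltransferase complexes, rose by 0.39 ± 0.09 (adjusted p = 0.038, and 0.117 without Rosa26 6 months replicate 4), with an interaction of 0.52 ± 0.13. Smarcd1, a SWI/SNF subunit, and Nol10, a nucleolar protein, had guide effects of opposite sign, -0.35 ± 0.13 and 0.42 ± 0.13 for Smarcd1 and -0.36 ± 0.13 and 0.43 ± 0.13 for Nol10, with interactions of 0.78 ± 0.18 and 0.79 ± 0.18. Htra3, a secreted serine protease, had an interaction of 1.29 ± 0.34 that was 0.98 without HIRA 6 months replicate 3. Gstp2, a glutathione transferase, was at 0.64 to 0.83 CPM in Rosa26 and 0.77 to 4.62 CPM in HIRA at 6 months, with an interaction of 1.97 ± 0.50 (1.52 ± 0.41 without HIRA 6 months replicate 5). Its guide effect at 6 months of 1.58 ± 0.36 had an adjusted p of 0.033, and of 0.058 without that library.

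The 12 negative genes were Car14, Dbp, Dleu2, Nr1d2, Flcn, Pcca, Rassf6, Per3, Sult1c2, Apoo, Fn3k and Zfp395, from -4.22 to -0.43 (adjusted p = 0.614 for each), with opposite signs in 10 and a larger change with time in the Rosa26 livers in 8. Car14, a membrane carbonic anhydrase, had the smallest adjusted p of any guide effect named here. It was at 23, 21.1, 21.7, 19.0 and 31.4 CPM in Rosa26 and 59.2, 51.2, 46.5, 50.4 and 58.0 CPM in HIRA at 3 weeks, and at 38.8, 34.6, 33.7, 37.8 and 31.7 CPM in Rosa26 and 41.9, 59.5, 39.4, 42.5 and 45.1 CPM in HIRA at 6 months. HIRA was above Rosa26 without overlap at both times, by 1.19 ± 0.12 at 3 weeks (adjusted p = 0.00011) and by 0.37 ± 0.12 at 6 months (adjusted p = 0.14), and the interaction was -0.82 ± 0.17. Its 3-week call held without any 1 library (highest adjusted p = 0.0010).

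Fn3k, which removes sugars from glycated proteins, fell by 0.54 ± 0.13 with the Hira guide at 6 months (adjusted p = 0.038, and 0.132 without Rosa26 6 months replicate 4), with an interaction of -0.66 ± 0.18. Sult1c2, a sulfotransferase, fell by 0.77 ± 0.18 at 6 months (adjusted p = 0.041, and 0.094 without HIRA 6 months replicate 1), with an interaction of -1.02 ± 0.26. Pcca, a subunit of propionyl-CoA carboxylase, rose with time in the Rosa26 livers by 0.45 ± 0.09 (adjusted p = 0.028, and 0.097 without Rosa26 3 weeks replicate 4), with an interaction of -0.47 ± 0.12. Flcn, the folliculin tumour suppressor, had an interaction of -0.68 ± 0.17, Dleu2, a long noncoding RNA, one of -0.76 ± 0.19 and Rassf6, a RAS-association domain protein, one of -1.14 ± 0.30. Apoo, a subunit of the mitochondrial MICOS complex, and Zfp395, a zinc finger gene, were at -0.43 ± 0.12 and -0.61 ± 0.17.

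**Figure D3:**
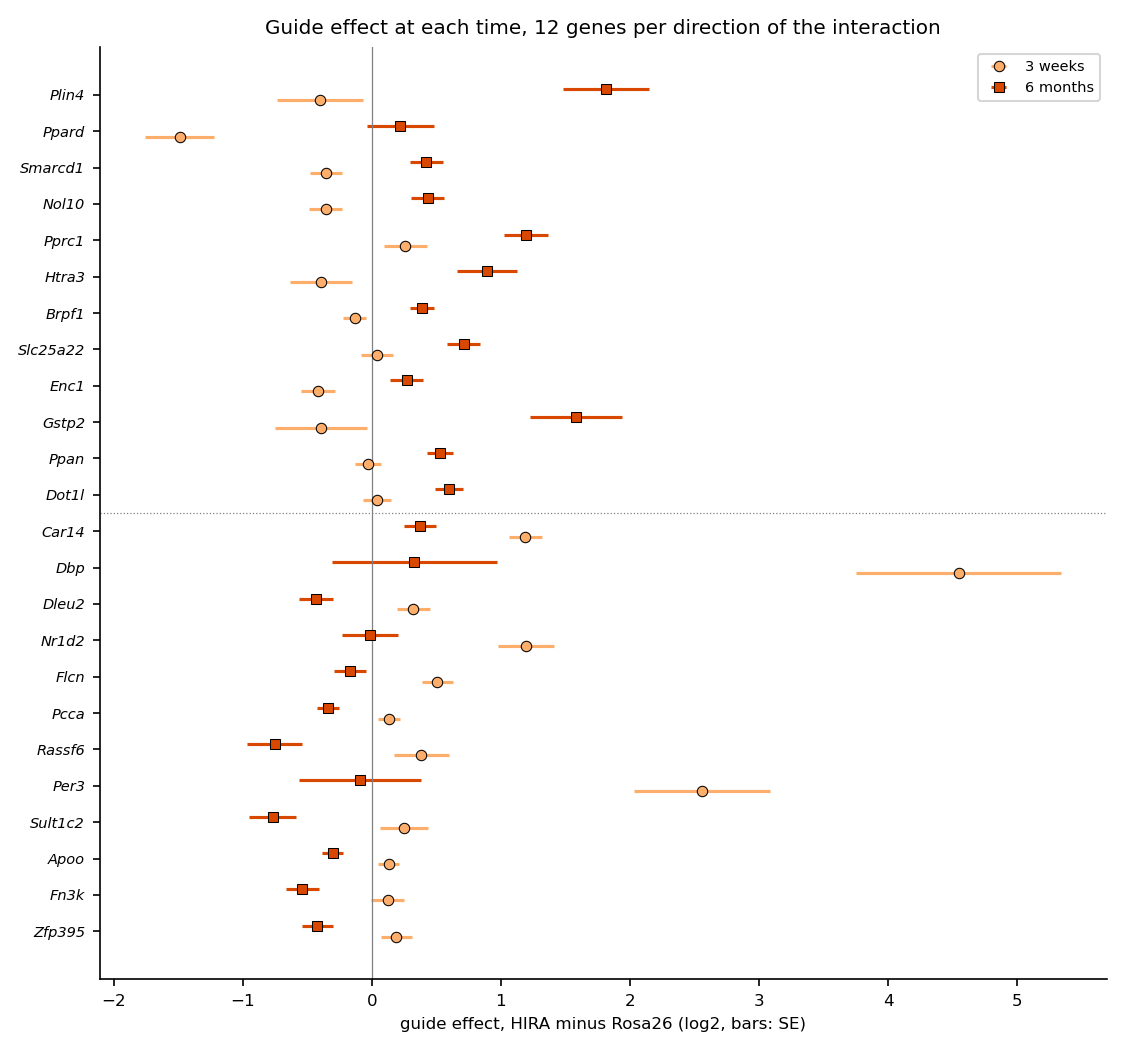
Guide effect (HIRA minus Rosa26, log2, with SE as bars) at 3 weeks (circles) and 6 months (squares) for the 12 positive genes above the dotted line and the 12 negative genes below it. Pprc1 moves from 0.26 at 3 weeks to 1.19 at 6 months and Slc25a22 from 0.04 to 0.71, whereas Dbp, Per3, Nr1d2 and Car14 lie highest at 3 weeks (4.55, 2.56, 1.19 and 1.19).

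Several of these genes overlap a gene on the opposite strand, and whether counting used the strand is not given in the sources used here. Sphk2 beside Dbp had 201% of its counts and an interaction of -0.55 ± 0.16. Ldb1, which itself had a guide effect of 0.39 ± 0.10 at 6 months, beside Pprc1 had 254% and 0.22 ± 0.14. Aph1a beside Car14 had 117% and -0.26 ± 0.12, and Ggact beside Pcca had 94.9% and 0.02 ± 0.19.

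In 24 target genes of p53 the median interaction was 0.01 (-0.04 without HIRA 6 months replicate 5, -0.20 without HIRA 6 months replicate 3 and 0.09 without Rosa26 6 months replicate 3), yet a few members stood far from it. At an unadjusted p under 0.05 1 of the 24 was positive and 2 were negative (12.5% of the list, 6.62% of all genes tested). With time in the Rosa26 livers 2 were called up and 4 down, where 0.324% of all genes changed. Only 1 of these calls was made without Rosa26 3 weeks replicate 1. Cdkn1a, which encodes the cell cycle inhibitor p21, was at 52.2, 41.4, 72.6, 121 and 45.5 CPM in Rosa26 and 14.8, 17.3, 64.3, 23.7 and 19.7 CPM in HIRA at 3 weeks, and at 4.91, 3.50, 9.34, 4.12 and 5.23 CPM in Rosa26 and 13.1, 12.8, 12.8, 3.67 and 5.29 CPM in HIRA at 6 months. All livers at 6 months were below all livers at 3 weeks. With time Cdkn1a fell by 3.61 ± 0.45 in the Rosa26 livers (adjusted p = 0.0020), a call that held without any 1 library (highest adjusted p = 0.018), while its difference with time in the HIRA livers was -1.54 ± 0.42 (adjusted p = 0.20). Its interaction was 2.07 ± 0.59 (2.22 ± 0.60 without HIRA 6 months replicate 5). Gadd45a, a DNA damage response gene, and Bbc3, which encodes the apoptosis activator PUMA, had negative interactions. Gadd45a rose with time in the Rosa26 livers by 1.45 ± 0.25 (adjusted p = 0.021, and 0.081 without Rosa26 3 weeks replicate 4), with an interaction of -0.97 ± 0.35. Bbc3 fell by 0.69 ± 0.14 with the Hira guide at 6 months (adjusted p = 0.020, and 0.073 without Rosa26 6 months replicate 4) and had an interaction of -0.65 ± 0.20. The 27 proliferation genes had a median of -0.10 (0.05 without HIRA 6 months replicate 5, -0.44 without HIRA 6 months replicate 3 and 0.21 without Rosa26 6 months replicate 3), with 1 positive gene, Mcm7, at an unadjusted p under 0.05 (3.67% of all genes tested), which overlaps genes of higher count on the opposite strand.

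Among genes of non-hepatocyte cells and of inflammation, the matrix, interferon, endothelial and neutrophil lists had mostly positive members, where 54.4% of all genes tested were positive, and the other lists were mixed in sign. Leaving out HIRA 6 months replicate 5 made 13 of 15 biliary and 19 of 26 lymphocyte genes positive. Of 36 genes of stellate cells and extracellular matrix 35 had a positive interaction, 2 of them (Lox, a collagen crosslinking enzyme, and Pdgfra, a receptor of stellate cells) at an unadjusted p under 0.05 (3.67% of all genes tested), with a median of 0.45. Without HIRA 6 months replicate 5 11 were at that threshold (4.17% of all genes tested) and the median was 0.62, and without HIRA 6 months replicate 3 the median was 0.06. Their scores at 6 months were -0.44 to 0.28 in Rosa26 and 0.09, 0.13, 1.46, 0.24 and -0.75 in HIRA. Of 35 interferon response genes 32 were positive, 1 of them (Irf9) at an unadjusted p under 0.05, a share near that of all genes, with a median of 0.33, and 12 without HIRA 6 months replicate 5, with a median of 0.46. Without Rosa26 6 months replicate 3 the median was 0.62. Their score was -0.81 in HIRA 6 months replicate 5 and -0.20 to 0.48 in the other HIRA livers at 6 months.

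Of 21 genes of sinusoidal endothelium 18 were positive, 3 of them (Eng, Gata4 and Stab1) at an unadjusted p under 0.05 (54.4% and 3.67% of all genes tested), with a median of 0.20 (0.27 without HIRA 6 months replicate 5). The median was 0.11 without Rosa26 6 months replicate 4, 0.12 without Rosa26 3 weeks replicate 4 and 0.31 without Rosa26 6 months replicate 3. Eng overlaps Fpgs on the opposite strand, which had 221% of its counts. All 10 neutrophil genes were positive, with a median of 0.97 and 1 gene, Cxcr2, at that threshold, but only 3 of them reached a mean of 1 CPM. Their median was 1.17 without HIRA 6 months replicate 5, -0.50 without Rosa26 3 weeks replicate 3 and 2.01 without Rosa26 6 months replicate 3. Kupffer cell and macrophage genes (23; median -0.12, and 0.09 without HIRA 6 months replicate 5), lymphocyte genes (26; 0.10 and 0.29), biliary genes (15; -0.01 and 0.10) and antigen presentation genes (18; -0.12 and 0.03) held 1, 0, 0 and 0 genes at an unadjusted p under 0.05 (6.62% of all genes tested). Without Rosa26 6 months replicate 3 the Kupffer cell median was 0.71 and the lymphocyte median 0.40, and without HIRA 6 months replicate 3 the lymphocyte median was -0.20. The antigen presentation median was -0.26 without HIRA 6 months replicate 3 and 0.18 without Rosa26 6 months replicate 3, and the biliary median -0.11 and 0.19 without HIRA 3 weeks replicate 3 and 5. The 1 gene was Marco, a macrophage scavenger receptor, whose interaction of 2.72 ± 1.04 was 1.01 without Rosa26 3 weeks replicate 3. Of 25 imprinted genes 20 were positive, with a median of 0.35 with and without HIRA 6 months replicate 5, and of 0.12 without HIRA 6 months replicate 3 and 0.23 without HIRA 3 weeks replicate 1. On the FPKM scale it was 0.09. Of the 25 genes 15 reached a mean of 1 CPM, and 3 were positive at an unadjusted p under 0.05. Members such as Airn and Nnat overlap genes of far higher count on the opposite strand. Peg10, an imprinted gene derived from a retrotransposon, rose with the Hira guide at 6 months by 2.51 ± 0.49 (adjusted p = 0.016, and 0.062 without Rosa26 6 months replicate 4) and had an interaction of 1.71 ± 0.67.

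Most genes of the respiratory chain were below 0, by small amounts. Of 77 nuclear genes of oxidative phosphorylation 64 were negative, 3 of them at an unadjusted p under 0.05 and 0 positive, with a median of -0.12 (8 and -0.16 without HIRA 6 months replicate 5). The 3 genes are 3.9% of the list, where 6.62% of all genes tested passed, and the score interaction was -0.12 ± 0.12. The median was -0.07 without HIRA 3 weeks replicate 1 and -0.08 without HIRA 6 months replicate 4. Of the 13 genes of the mitochondrial genome 10 were negative, 1 of them (mt-Co3) at that threshold, with a median of -0.08 (4 and -0.23 without HIRA 6 months replicate 5, and a median of 0.04 without Rosa26 3 weeks replicate 1). mt-Co3, a subunit of cytochrome c oxidase, was at 9.34 to 12.8 CPM in Rosa26 and 78.8, 36.9, 11.5, 16.3 and 19.8 CPM in HIRA at 3 weeks, and at 12.5 to 30 CPM in Rosa26 and 5.62 to 50 CPM in HIRA at 6 months, with an interaction of -1.44 ± 0.66. The highest value at 6 months was that of HIRA 6 months replicate 5, without which the interaction was -1.98 ± 0.60. mt-Co3 overlaps mt-Atp6 on the same strand, which had 45.4% of its counts. Its CPM is a very small part of the mitochondrial share given next, so its counts may not follow the level of the transcript. The share of all counts from the mitochondrial genome was 2.84% to 6.23%, with the highest in the same library.

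Medians with all libraries lay between -0.02 and 0.06 for 18 hepatocyte transcription factors, 35 plasma proteins and 22 acute phase genes, and at -0.16 for 30 genes of the urea cycle and amino acid catabolism, 24 of which were negative (-0.08 without HIRA 6 months replicate 1). That of the transcription factors was 0.14 without HIRA 6 months replicate 3 and 0.02 without Rosa26 6 months replicate 3, and that of plasma proteins 0.05 without Rosa26 6 months replicate 2 and -0.05 without Rosa26 6 months replicate 3. Without HIRA 6 months replicate 5 the medians were 0.03 for transcription factors, -0.003 for plasma proteins, 0.003 for acute phase genes and -0.14 for urea cycle genes. The acute phase median was -0.46 without Rosa26 3 weeks replicate 2 and 0.20 without Rosa26 3 weeks replicate 5. An unadjusted p under 0.05 was held by 16.7% of the transcription factors and 9.1% of the acute phase genes. For plasma proteins and urea cycle genes it was 5.7% and 3.3%, where 6.62% of all genes tested passed. Genes at that threshold in these and other lists included Cebpb and Cebpd, factors of the acute phase, at 0.74 ± 0.26 and 0.96 ± 0.32. Also among them were Nr0b2, a repressor of bile acid synthesis, at 1.10 ± 0.39, and Nr5a2, a nuclear receptor that it represses, at -0.36 ± 0.12. Apoa1, the main protein of high-density lipoprotein, was at 0.64 ± 0.23. Cyp1a2, a drug-metabolising cytochrome, and Rgn, a pericentral enzyme of ascorbate synthesis, were at -0.75 ± 0.25 and -0.47 ± 0.17. The acute phase score did not overlap between guides at 6 months (-0.06 to 0.90 in Rosa26 and -0.40 to -0.07 in HIRA), but at 3 weeks Rosa26 livers spanned -0.66 to 1.45 and its interaction was -0.38 ± 0.45. Tsku, a secreted regulator of BMP and TGF-beta signals, rose with the Hira guide at 6 months by 2.05 ± 0.41 (adjusted p = 0.020, and 0.062 without Rosa26 6 months replicate 4), with an interaction of 1.60 ± 0.56. Ccl9, a chemokine gene, fell by 0.78 ± 0.13 at 6 months (adjusted p = 0.011), which held without any 1 library, with an interaction of -0.48 ± 0.18.

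The remaining lists are given by their medians with all libraries and, in parentheses after it, without HIRA 6 months replicate 5, and by the genes at an unadjusted p under 0.05, to be read against 6.62% of all genes tested. Each of these medians moved by over 1.5 times or changed sign without some single library, and no direction is drawn from them. Among stress programs, the median was 0.15 (0.25) for 16 genes of the integrated stress response (1 gene, Vldlr, negative) and 0.16 (0.10) for 16 genes of endoplasmic reticulum stress (1 gene, Derl3, positive). It was 0.03 (-0.01) for 12 heat shock genes and -0.04 (-0.13) for 18 genes of oxidative stress and metallothioneins (1 gene, Nqo1, negative). Heat shock had 3 of 12 genes at that threshold (25%), the small heat shock protein Hspb1 at 1.16 ± 0.42 and the mitochondrial chaperonins Hspd1 and Hspe1, which overlap each other, at -0.37 ± 0.13 and -0.25 ± 0.11.

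Among metabolic programs the median was 0.02 (-0.08) for 17 genes of gluconeogenesis and glycogen (1 gene, G6pc, positive) and -0.08 (-0.09) for 22 genes of bile acid synthesis and transport (0 genes). It was -0.04 (-0.16) for 30 genes of xenobiotic metabolism (2 positive and 1 negative), 0.06 (0.05) for 16 pericentral genes (1 and 1) and -0.16 (-0.21) for 12 periportal genes (0 genes). It was -0.04 (-0.08) for 14 genes of the growth hormone and IGF axis (Stat5a, a transducer of growth hormone signals, at 0.57 ± 0.20 and Prlr, the prolactin receptor, at -0.57 ± 0.27; 14.3% of the list). It was 0.20 (0.19) for 20 genes of BMP and hepcidin signaling (2 positive, Tsku and Acvr1) and 0.04 (0.08) for 13 genes of microvillar adhesion (Anks4b at -0.47 ± 0.20 and Myo1a at -2.32 ± 0.98; 15.4% of the list). Stat5a overlaps Stat3 on the opposite strand with 765% of its counts.

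Small lists moved with single libraries. The median was 0.07 (0.21) for 14 chemokines (Cxcl13 positive and Ccl9 negative, 14.3% of the list) and 0.86 without Rosa26 6 months replicate 3. It was 0.01 (-0.03) for 5 erythroid genes (0 genes) and 0.44 without Rosa26 6 months replicate 5. For 8 fetal liver genes it was 0.87 (1.00; 0 genes) and 0.12 without HIRA 6 months replicate 3. Closest to the target of the guide, 14 genes of the HIRA complex, H3.3 and other chaperones had a median of 0.05 (0.05) with 1 gene at that threshold, Daxx, a chaperone that places H3.3 at repeats, at 0.26 ± 0.12. The 41 replication-dependent histone genes tested had a median of -0.28 (-0.08; 2 negative genes, and 0 without HIRA 6 months replicate 5). The 378 Zfp-named zinc finger genes had one of 0.01 (-0.01; 10 positive and 13 negative).

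The values of the sex-biased programs depended on 1 library. The 15 male-biased liver genes had a median interaction of 2.92 with all libraries, 7 of them positive at an unadjusted p under 0.05 (3.67% of all genes tested). Leaving out HIRA 6 months replicate 5 gave a median of 0.05, with 1 positive and 2 negative genes at that threshold (4.17% and 3.47% of all genes tested). Mup20, a urinary pheromone protein of males, was at 12.7 to 30.3 CPM in Rosa26 at 6 months, at 36.1, 23.9, 82.9 and 28 CPM in 4 HIRA livers and at 1725 CPM in HIRA 6 months replicate 5. The interactions of Cyp2d9 and Hsd3b5, 2 male-biased steroid-metabolising enzymes, turned from 2.92 ± 1.28 and 4.31 ± 1.80 to -0.80 ± 0.37 and -0.64 ± 0.88 without it. The 25 female-biased genes had a median of -0.82 and of -0.55 without it, with 24 and 22 negative genes, of which 0 and 2 were at an unadjusted p under 0.05 (2.95% and 3.47% of all genes tested). Even without that library their HIRA scores at 6 months (-0.59, 0.61, -0.68 and 0.49) spread more widely than the Rosa26 scores (0.55 to 0.85).

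**Figure D4:**
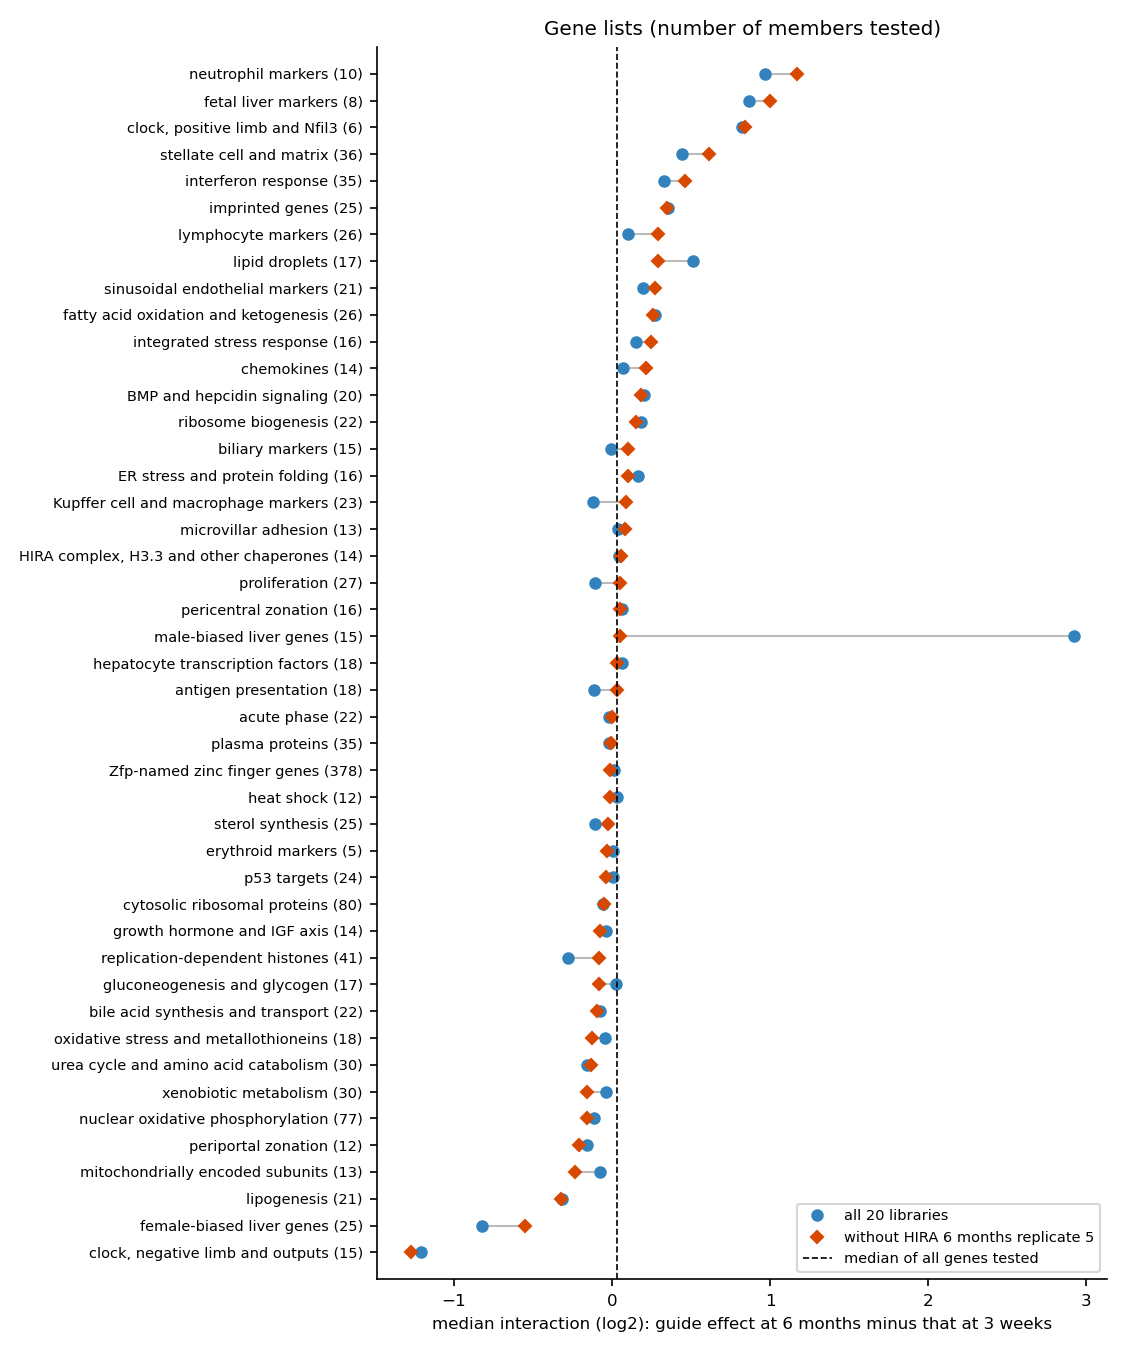
Median interaction (log2) of each of the 45 gene lists, with the number of members tested, over all 20 libraries (circles) and without HIRA 6 months replicate 5 (diamonds); the dashed line is the median of all genes tested. The clock repressors and outputs lie lowest in both (-1.21 and -1.27), and the male-biased genes move from 2.92 to 0.05.

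Differences in base composition and level moved with the interaction. Over genes with a mean of at least 1 CPM, the median interaction went from -0.02 in the lowest decile of GC content to 0.11 in the highest, and the share of positive genes at an unadjusted p under 0.05 from 2.69% to 7.60%. The libraries moved alike, since centred log2 CPM averaged over the 2 most GC-rich deciles, less that of the 2 most GC-poor deciles, was -0.11 to 0.00 in Rosa26 and 0.01 to 0.19 in HIRA at 6 months, without overlap. With offsets that remove a smooth trend with GC content from each library, 1500 genes had an unadjusted p under 0.05 and the clock median was -1.18. In the edgeR fit Rgn fell by 0.50 with the Hira guide at 6 months (adjusted p = 0.039), a call lost without any 1 of 7 libraries. It was not called with the GC offsets either. Over deciles of mean level the median went from 0.10 in the lowest to -0.03 in the highest (0.16 to -0.07 without HIRA 6 months replicate 5). The part of expression level was not tested.

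**Figure D5:**
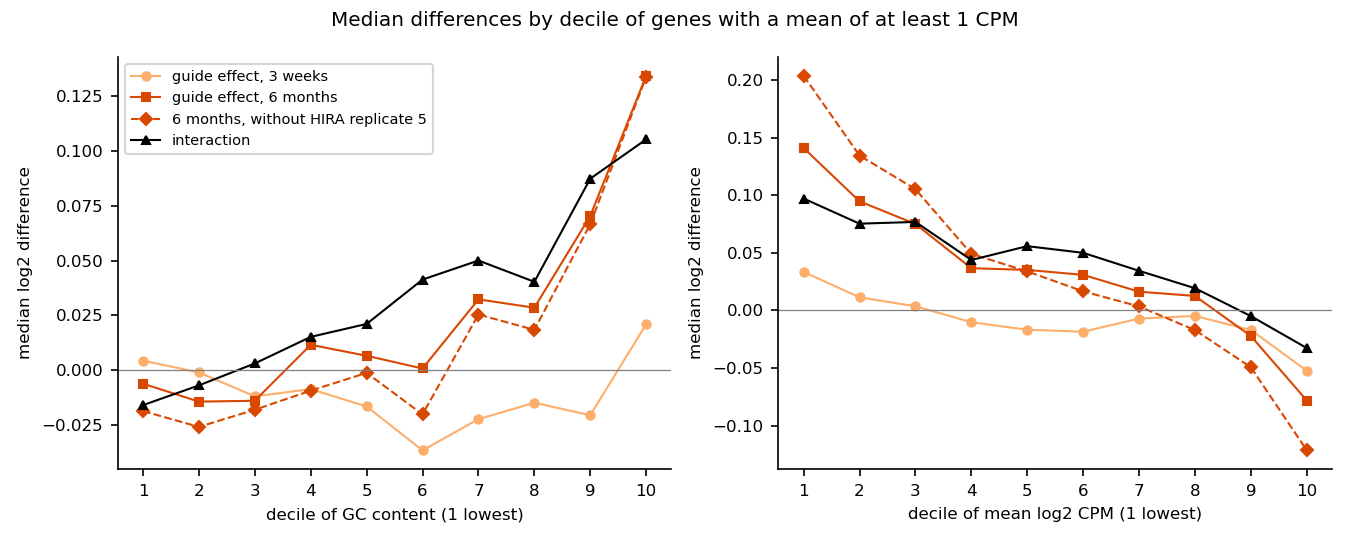
Median guide effect at 3 weeks and at 6 months (with and without HIRA replicate 5) and median interaction, all log2, by decile of GC content (left) and of mean log2 CPM (right) over genes with a mean of at least 1 CPM. The interaction climbs from -0.02 to 0.11 over GC deciles and declines from 0.10 to -0.03 over expression deciles.

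Beyond these programs, the guide effects at the 2 times, which share no library, had the same sign in 64.3% of the 12903 genes with a mean of at least 1 CPM, with Pearson's r of 0.319 and Spearman's rho of 0.386 across genes, which are not independent replicates (0.393 and 0.402 without HIRA 6 months replicate 5). The median size of the guide effect was 0.113 at 3 weeks and 0.153 at 6 months. Of the 45 genes changed at 3 weeks at an adjusted p under 0.05, 42 had the same sign at 6 months, and of the 299 changed at 6 months, 263 (88.0%) had the same sign at 3 weeks. Of these genes 25 and 145 had an interaction at an unadjusted p under 0.05, where 6.62% of all genes tested did. They were chosen by a guide effect that is part of the interaction, so these counts follow in part from the choice. The median size of the 45 effects went from 1.08 at 3 weeks to 0.43 at 6 months. That of the 299 was 0.57 at 6 months and 0.25 at 3 weeks. The number of calls at each time moved with 1 library, to 103 at 3 weeks and 395 at 6 months without HIRA 6 months replicate 5. Over time, 74 genes changed in the Rosa26 livers and 15 in the HIRA livers, and 213 and 28 without it. Of the 74 genes, 64 moved in the same direction in the HIRA livers, with a median size of 0.97 in Rosa26, by which they were chosen, and 0.22 in HIRA.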

How the data were processed

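Poly(A) RNA of 20 livers was sequenced, 5 per guide and time. The authors deposited 1 table of raw counts per gene, from reads aligned to mm10 with STAR, and FPKM values per gene, computed by the authors and relative to transcript length and library total. The submitters' processing notes list STAR, HTSeq and Cufflinks with no role. The study's methods name HOMER for gene counts, so the counter is unsettled. The labels and a figure legend of the study call the mice female, its text calls those of this time course male, and the labels were followed. Columns were mapped to samples by their labels. Library totals were 19916430 to 24079736 counts. Genes with at least 10 counts in total were fitted with edgeR 4.0.16 in R 4.3.3 (TMM scaling, a mean per group, quasi-likelihood test, Benjamini-Hochberg adjustment over all genes tested), and a call required an adjusted p under 0.05, with an absolute log2 difference above 1 for the interaction where stated. The SE of a difference is its size over the square root of F. Level is CPM, and scores used log2 CPM with a prior count of 2. Nothing in the labels says whether replicates shared a cage or day, so p-values measure the spread between these samples. Alternatives were DESeq2 1.42.0, limma 3.58.1 (voom), other scalings and filters, log2(FPKM + 1) with limma, GC offsets (chosen after seeing the data), a replicate block and leaving out each library.

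Named genes were Hira, the sex check, members of 45 gene lists (smallest p first, then members that define a program) and, per direction, the 12 genes of at least 1 CPM with a gene symbol and the smallest larger p of the fits with and without HIRA 6 months replicate 5. Tshz3 and Gm7232 were named after their values were seen. The members and lists were chosen with earlier results of these data known. Of 1441 list entries, 1439 were in the table and 1373 were tested. Gene identifiers were matched to GENCODE M21 (98.5%) for coordinates. Tested on simulated counts for the interaction over 22392 genes, edgeR recovered 190 of 200 changed genes with 7 false calls. The changes had 2 sizes, of which 80 of 89 of the smaller and 110 of 111 of the larger were recovered. Both sizes were larger than most interactions described here, and only genes of at least 1 CPM were changed. Recovery of smaller changes was not tested.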

Additional observations from a re-analysis of the deposited data

Results flagged for a closer look

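A library was singled out where its gap to the nearest of the other 4 of its group exceeded 0.71 of the group's range (Dixon's 95% critical value). This held for 28 of 320 groups of values, and chance flags about 1 in 20. HIRA 6 months replicate 5 gave 7 of them, Rosa26 6 months replicate 3 gave 4 and HIRA 3 weeks replicate 3 gave 3.

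In HIRA 6 months replicate 5 the score of male-biased genes was 4.03 (the other 4 libraries lay between -0.52 and -0.21), that of female-biased genes -4.63 (-0.68 to 0.61), that of the growth hormone and IGF axis -0.48 (-0.12 to 0.01) and that of microvillar adhesion -0.76 (0.36 to 0.66). Its log2 CPM was 5.92 for Cidec (1.11 to 1.73), 5.48 for Cyp2b9, a female-biased cytochrome (8.18 to 9.24), and -0.86 for Xist (8.24 to 8.47).

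In Rosa26 6 months replicate 3 the score was -0.23 for hepatocyte transcription factors (-0.04 to 0.02), -0.36 for the growth hormone and IGF axis (0.02 to 0.08), 1.21 for Kupffer cell and macrophage genes (-0.62 to -0.11) and 1.06 for chemokines (-0.25 to -0.13). In HIRA 3 weeks replicate 3 it was -0.26 for male-biased genes (0 to 0.07), 0.01 for sinusoidal endothelium (0.19 to 0.21) and 0.38 for heat shock (-0.06 to 0.01).

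Among the other libraries at 3 weeks, Rosa26 replicate 1 had a pericentral score of 0.41 (0.03 to 0.12), Rosa26 replicate 4 a BMP and hepcidin score of 0.35 (-0.04 to 0.01) and Rosa26 replicate 3 an integrated stress response score of 0.28 (-0.12 to -0.03) and a log2 CPM of Arntl of 4.64 (5.01 to 5.10). Rosa26 replicate 2 had a log2 CPM of Lox of -1.78 (-0.84 to -0.47). HIRA replicate 1 had a periportal score of 0.32 (-0.19 to -0.05) and a fetal liver score of -1.99 (-0.53 to -0.01), and HIRA replicate 2 a mitochondrial share of counts of 3.58% (4.01% to 4.15%).

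At 6 months, HIRA replicate 1 had a log2 CPM of Ppard of 4.92 (3.57 to 3.86) and a difference between GC-rich and GC-poor genes of 0.19 (0.01 to 0.05). HIRA replicate 2 had a periportal score of 0.24 (-0.16 to -0.10) and HIRA replicate 3 a score of the HIRA complex and other chaperones of 0.12 (-0.01 to 0.01). Rosa26 replicate 4 had a log2 CPM of Nol10 of 1.72 (2.17 to 2.30) and Rosa26 replicate 2 a mitochondrial share of 3.85% (4.28% to 4.42%).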

How the results depend on the processing

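The number of genes past both thresholds for the interaction was 0 with all libraries, 0 to 1 when each library was left out, and 6 with DESeq2 without HIRA 6 months replicate 5. The 1 gene was Plin4, without HIRA 6 months replicate 4 (2.45 ± 0.36, adjusted p = 0.0331). When each library was left out, the genes at an unadjusted p under 0.05 numbered 1212 (without HIRA 3 weeks replicate 4) to 1771 (without HIRA 6 months replicate 4), and over the other settings 1105 (edgeR's filter on low counts, with fewer genes tested) to 1736 (no filter). Of 30 pairs of same-numbered libraries 14 had a correlation of their deviations above 0.1 (r of -0.309 to 0.335), and 5 of 20 libraries were closest to their own number, so the numbers were not taken as pairing. With a replicate block 0 genes passed both thresholds and 1493 had an unadjusted p under 0.05, and 1692 without HIRA 6 months replicate 5.

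The interaction of Cideb was 0.0714 on the FPKM scale. When each library was left out, that of Cyp2d9 ran from -0.8035 (without HIRA 6 months replicate 5) to 3.2307 and that of Hsd3b5 from -0.6366 to 4.6417. Also without that library, Cyp2d9 was at -0.7522 with the replicate block, -0.8287 with DESeq2 and -0.8225 with GC offsets, and Hsd3b5 at -0.7182, -0.7212 and -0.6197. The cause was not tested. Of the other gene interactions under alternatives, 3638 stayed on their side of the threshold in the same direction and 10 became stronger. No interaction passed the threshold in the main fit with all libraries. Staying on the same side was therefore likely from the start, and the 3638 do not show that the values are stable. Of the called guide and time effects of single genes under alternatives, 1229 stayed the same and 355 became weaker. Low genes such as Hsd3b5 and Cxcr2 rest on few counts.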
